A study of Oncorhynchus mykiss with 72 samples.

Results

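Gill transcripts of F1 cross redband trout held at 28 °C for 3 days were set against those of F1 cross fish held at 15 °C on the same day. The comparison rests on 6 of the 72 libraries of the series, 3 at each temperature, taken by strain, temperature and day from the column names of the table of the F1 cross. The F1 cross was bred from Little Jacks, a strain of a desert creek, and Keithly, a strain of a montane creek. The series also holds both parental strains, and every strain was sampled at 28 °C and at 15 °C on days 1, 3, 7 and 28, with 3 libraries per group. Beside the day 3 libraries, those of the F1 cross on the other days and those of Little Jacks and Keithly fish on day 3 are used here to show where the day 3 response of the cross differed. Each library holds RNA pooled from 3 samples of fish that shared a rearing tank, per the authors' library table. The p-values therefore rest on differences between such pools. In the limma fits the spread is taken over all groups of a fit, not over the day 3 libraries alone.

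The gill is the surface across which a trout exchanges gases, ions and nitrogenous waste with the water, so its cells are at the temperature of the water. Warming of fish cells is known to set off the heat shock response, in which heat shock factors raise transcription of genes for chaperones, proteins that keep other proteins folded. An F1 cross carries a set of chromosomes from each parental strain, so a transcript level in the cross draws on alleles of both. The feature identifiers in the files carry no gene names, and 0 of the 25137 identifiers matched the reference table of gene names. No feature below is therefore given a role, apart from ribosomal RNA features whose identifiers name them. Chaperones, markers of gill cell types and markers of blood were not analysed here for the same reason. The labelled tissue could not be checked against its markers. In RNA of gill tissue, fewer cells of a type and less RNA per cell cannot be told apart.

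Values are the authors' normalised signal, in which each read of a library has the same worth, so whole reads could be recovered from them. Reads are given in M (mega). The 3 libraries at 28 °C held 8.47, 6.34 and 10.3 M recovered reads in replicates 1, 2 and 3, against 0.614, 3.22 and 5.18 M at 15 °C. Replicate 1 at 15 °C was 1 of 3 libraries in the series with fewer than 1 M reads, where the series ran from 0.276 to 19.9 M. No read was recovered for 26, 29 and 48 of the 24011 features in the libraries at 28 °C. At 15 °C this was so for 3953 features (16.5%) in replicate 1, 898 (3.74%) in replicate 2 and 26 in replicate 3. No fold is read at or under 3 reads, which corresponded to 0.363, 0.462 and 0.287 units of signal at 28 °C and to 4.04, 0.855 and 0.513 units at 15 °C. That limit covers counting error only.

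The heated libraries lay close together and the control libraries did not. Over 6886 features with a mean signal of at least 20 across the 24 F1 libraries, the SD of the log2 differences between libraries was 0.368 to 0.409 for the 3 pairs at 28 °C. At 15 °C it was 0.846 between replicates 1 and 2, 0.755 between 1 and 3, and 0.528 between 2 and 3. Pairs of a 28 °C and a 15 °C library differed by 0.796 to 1.11. The median SD of a feature within its group was 0.167 at 28 °C and 0.313 at 15 °C on day 3, where the other F1 groups ran from 0.176 to 0.356. Measured against the 15 °C libraries of the other days, the day 3 controls had SDs of the log2 difference of 0.718, 0.574 and 0.449 in replicates 1, 2 and 3. The same measure ran from 0.363 to 0.481 in the controls of days 1 and 7, and was 0.616, 1.35 and 0.459 in those of day 28, whose replicate 2 stood furthest apart. As a group they differed from the mean of the controls of days 1, 7 and 28 in 4 features, 1 higher and 3 lower, by limma adjusted p under 0.05. That is 0.0167% of the features tested, and 4222 had an unadjusted p under 0.05.

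On day 3 of heat, 1532 features rose and 946 fell in the F1 cross, at a Benjamini-Hochberg adjusted p under 0.05 in a limma fit over the 24 F1 libraries. These are 6.38% and 3.94% of the features tested, 10.3% in all, and 6085 features had an unadjusted p under 0.05. Of those that rose, 1176 did so at least 2-fold, 447 at least 4-fold, 91 at least 8-fold and 31 at least 16-fold, on the log2(signal + 0.5) scale. Of those that fell, the counts were 736, 169, 37 and 13. These classes were counted without the limit of 3 reads. Of the features that rose, 735 had 3 reads or fewer in at least 1 of the 6 libraries, as had 88 of those that fell. The folds of these are not read, so the classes of rise and fall are not compared. The signal in all 3 libraries at 28 °C lay above that in all 3 at 15 °C for 1433 of the features that rose (93.5%), and below it for 928 of those that fell (98.1%). Over all 24011 features, 3690 (15.4%) lay above in this way and 2736 (11.4%) below. The called features were picked for a difference between these same libraries, so their high shares are in large part fixed by that choice.

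The excess of rising over falling features moved with the control libraries and with the scaling. Among the features that rose, 439 (28.7%) had no read in replicate 1 at 15 °C, 173 (11.3%) had none in replicate 2, and 144 had none in both but had reads in replicate 3. Of the features that fell, 90.7% had more than 3 reads in each of the 6 libraries, against 52.0% of those that rose and 60.3% of all features. Among the 1655 called features with more than 3 reads in each of the 6 libraries, 797 rose and 858 fell. That filter leaves out features that were low in either group, so this split is a description beside the first. The median log2 fold change over all features was 0.15 on the authors' scaling and -0.01 with reads scaled to the column total. That scaling called 694 higher and 869 lower. The quasi-likelihood test of edgeR, run on recovered reads, gave 1010 higher and 1078 lower, and DESeq2 1127 and 1374. No majority direction is read from these counts.

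The number of called features also moved with single libraries. It was 4234, with 3080 higher and 1154 lower, without replicate 3 at 15 °C. Without the shallow replicate 1 at 15 °C it was 1838, with 991 higher and 847 lower. Of the 2478 features, 1427 (57.6%) were still called there with the same sign. Without replicate 2 at 15 °C the count was 2452, with 1655 higher and 797 lower, and 69.9% of the 2478 were kept. Without replicate 1, 2 or 3 at 28 °C the count was 1269, 1503 or 1318. With only replicate 3 left at 15 °C, the control library with the fewest features at 0, 238 features were higher and 206 lower. The lone control was then assumed to vary like the other groups. With the 15 °C libraries of days 1, 7 and 28 as controls, 1470 were higher and 1389 lower, and 1587 of the 2478 features called against the day 3 controls (64.0%) were called there too. The part of depth in these counts was not tested, beyond a thinning of the day 3 libraries to the depth of the shallowest, which called 3415.

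**Figure D1:**
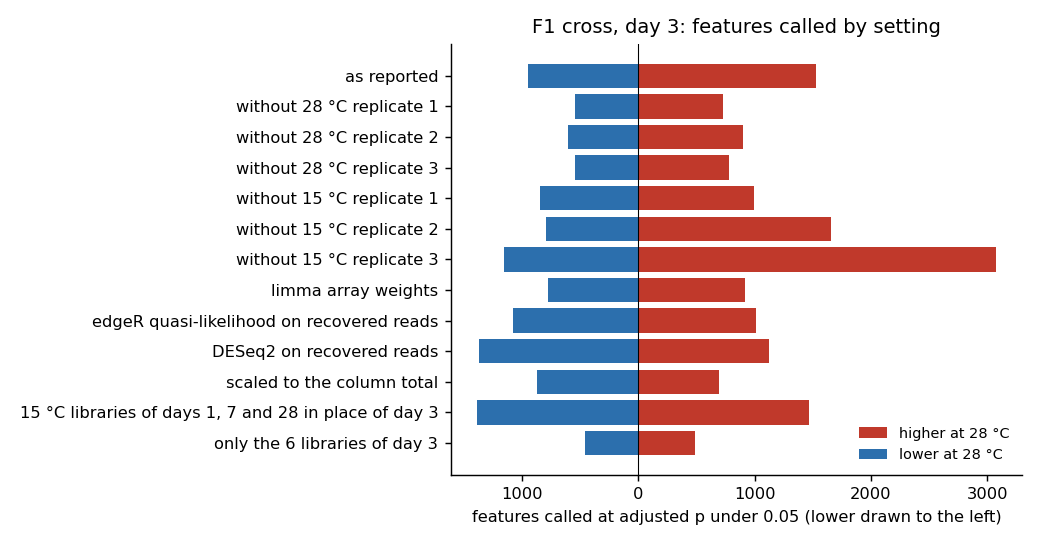
Features called for the heat effect in the F1 cross on day 3 (adjusted p under 0.05), 1 row per setting, with those higher at 28 °C drawn to the right and those lower drawn to the left. Among the settings drawn, the count ran from 946 in a fit on the 6 libraries of day 3 alone to 4234 without replicate 3 at 15 °C, and the lower side was the longer one with edgeR, DESeq2 and column-total scaling.

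The largest change among features with more than 3 reads in each of the 6 libraries was the rise of g01823. Its signal was 79688, 31439 and 56735 at 28 °C, against 83.4, 67.0 and 74.4 at 15 °C. The lowest heated library stood far above the highest control, and the groups did not overlap. On the log2 scale it was higher by 9.44 at 28 °C (SE 0.51, limma adjusted p 7.05e-11). The feature took 7.79%, 3.21% and 5.79% of all recovered reads at 28 °C and 0.0101%, 0.0073% and 0.0084% at 15 °C.

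Feature g14470 had the largest rise of the group mean, in units of signal, among the others of that set. It held 14179, 5790 and 9321 at 28 °C, against 22.9, 14.8 and 26.5 at 15 °C. As for g01823, replicate 1 was the highest and replicate 2 the lowest of the heated libraries, and no library at 15 °C came near them. The rise on the log2 scale was 8.75 (SE 0.43, limma adjusted p 4.92e-11). Both rises stayed called in all 20 alternative settings run for this comparison.

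The largest fall in that set, on the log2 scale, was in g05572, whose signal was 0.604, 1.23 and 1.53 at 28 °C, against 184.3, 96.9 and 59.4 at 15 °C. These came from 5, 8 and 16 reads at 28 °C and from 137, 340 and 347 reads at 15 °C. All controls stood far above all heated libraries, but the 3 controls spread over a wide range and the shallow replicate 1 held the highest signal. The change on the log2 scale was -6.03 (SE 0.81, limma adjusted p 5.23e-05), and it stayed called in all 20 alternatives. On the other days the feature varied widely. It averaged 5.68 at 28 °C and 91.6 at 15 °C on day 1. The day 7 means were 37.1 at 28 °C and 43.8 at 15 °C, and those of day 28 were 0.692 and 135.0.

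The largest fall in units of signal among the other features, ribosomal RNA set aside, was in g00501, an abundant feature. It held 1212, 1112 and 1344 at 28 °C, against 3725, 4895 and 3405 at 15 °C. Every control stood well above every heated library, though the controls spread more widely (SD 784, against 116 at 28 °C, n = 3 each). The log2 change was -1.70 (SE 0.32, limma adjusted p 0.00152). With only replicate 3 left at 15 °C, it was -1.48 (limma adjusted p 0.137), the 1 of 20 alternatives that lost the call. The same order held in the group means of the other days. Heated F1 fish had 1652, 2465 and 1981 on days 1, 7 and 28, and controls 4359, 5846 and 6289.

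**Figure D2:**
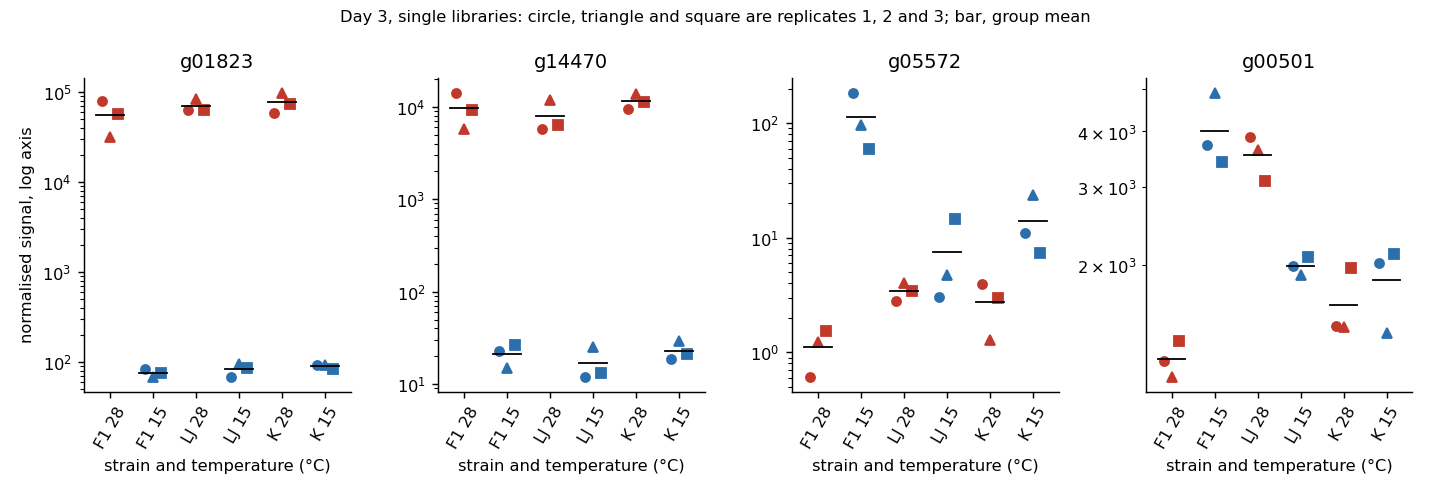
Normalised signal (log axis) of the 4 features on day 3, 1 point per library and a bar at the group mean, at 28 °C (red) and 15 °C (blue) in the F1 cross, Little Jacks (LJ) and Keithly (K). g01823 and g14470 rose in all 3 strains, whereas g05572 and g00501 separated by temperature most widely in the F1 cross, where g00501 had 1223 at 28 °C and 4008 at 15 °C on average. The 4 features were chosen for their change in these F1 libraries, a choice that favours a wide separation there.

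The most abundant features took a larger part of the reads at 28 °C than at 15 °C. The 10 most abundant features of each library held 17.1%, 10.9% and 13.9% of reads at 28 °C, against 7.25%, 8.87% and 8.30% at 15 °C. The groups did not overlap, with means of 14.0% ± 3.09 at 28 °C and 8.14% ± 0.822 at 15 °C (SD, n = 3 each, two-sided exact permutation p 0.1, the smallest that 3 against 3 allows). The difference of these means was 5.84 percentage points, and that of g01823 alone, chosen for its rise in these libraries, was 5.59. The gap between the groups is thus mostly that of 1 feature, and a share without it was not tested. The 100 most abundant held 32.0% ± 2.50 at 28 °C and 27.1% ± 0.822 at 15 °C (exact permutation p 0.1, n = 3 each). The 31 features that rose at least 16-fold, chosen on these libraries, made up 12.0%, 5.31% and 8.68% of the heated reads. Among the 31, g01823 alone held 7.79%, 3.21% and 5.79%.

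The heated libraries differed among themselves in these features. Of the 31, 22 (71.0%) had their highest heated signal in replicate 1 and their lowest in replicate 2, an order that 17.1% of all features showed. The same order held for 145 of 222 features that heat had raised at least 8-fold on day 1 (65.3%). Their day 1 fold came from other libraries, though the day 3 libraries entered the estimate of spread used to call them. In the median of those 222 features, replicate 1 had 1.59 times and replicate 3 had 1.26 times the signal of replicate 2. Over all features the medians were 0.998 and 1.00. The features share their libraries, so their number says nothing about how often fish would differ in this way.

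Reads confined to 1 temperature were rare on day 3. In 5 features no read was recovered at 15 °C in 9.01 M reads on day 3, while each heated library had more than 3, and 4 of these were called. The most abundant of them, an identifier chosen after its values were seen and left unnamed, averaged 794 ± 270 at 28 °C (SD, n = 3). Against 3 reads per control library, that is at least 441-fold higher. The 9 control libraries of the other days held 32 of its reads, and its heated mean was 7141 on day 1 and 42.4 on day 28. In the other direction, 1 feature had no read at 28 °C in 25.1 M reads and more than 3 in each control, with a mean of 4.11 at 15 °C. The depths of the groups differed, so the counts of 5 and 1 are not compared.

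A larger share of the abundant features was called. It was 6.29% of the 7315 features with a mean signal under 5, 9.02% of 9810 between 5 and 20, 15.6% of 5480 between 20 and 100, and 19.7% of 1406 at 100 or more. The median SE of the log2 fold change was 0.601, 0.379, 0.25 and 0.228 in these classes, so the rare features had the least precise values. In the most abundant class 188 features rose and 89 fell, and in the class under 5, 332 rose and 128 fell. The classes were set by the mean over all F1 libraries, the heated ones among them. A rise with heat can thus lift a feature into a higher class, and a fall can lower it. These splits are also on the authors' scaling, so no majority direction is read from them. Features whose identifiers begin with singleton had 31 higher (5.67%) and 11 lower (2.01%) among 547, where the shares over all features were 6.38% and 3.94%.

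**Figure D3:**
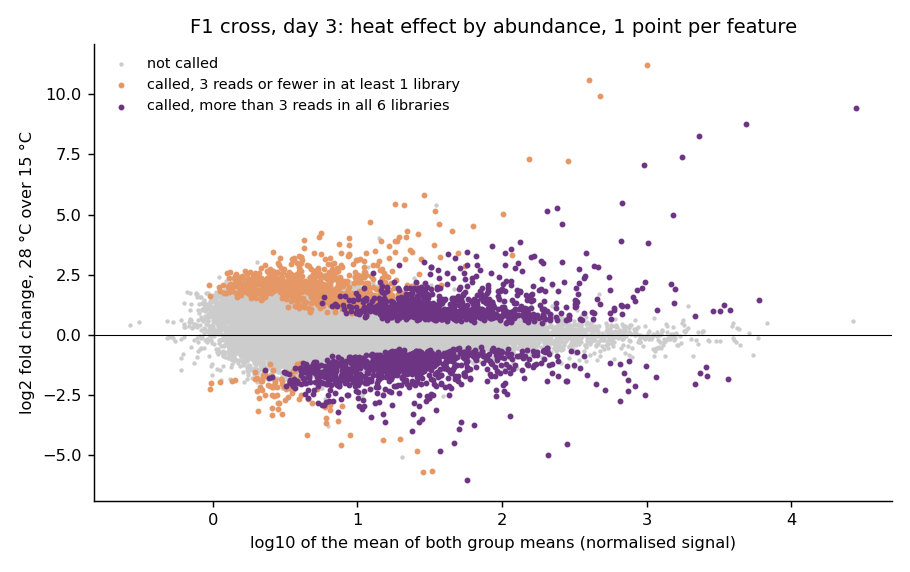
Log2 fold change of 28 °C over 15 °C in the F1 cross on day 3 against the log10 of the mean signal of both groups, 1 point per feature. Called features with 3 reads or fewer in some library (orange) lie mostly above 0 at low signal, 735 above and 88 below, whereas those with more than 3 reads in all 6 libraries (purple) lie on both sides, 797 above and 858 below. At 15 °C, 3 reads were worth 4.04 units in replicate 1, against 0.287 to 0.462 units at 28 °C. A feature low in the controls thus entered the orange set more readily, so the 735 and 88 are not compared.

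Ribosomal RNA features, which count what was left after depletion of ribosomal RNA, made up 0.444% ± 0.0915 of reads at 28 °C and 0.962% ± 0.294 at 15 °C (SD, n = 3 each, exact permutation p 0.1). The nuclear ribosomal RNAs, the 18S and 28S features, held 0.182% ± 0.0646 at 28 °C and 0.693% ± 0.296 at 15 °C (exact permutation p 0.1, n = 3 each). The mitochondrial 12S and 16S features held 0.263% ± 0.0667 at 28 °C and 0.269% ± 0.0296 at 15 °C (exact permutation p 0.9, n = 3 each). Of the 9 features rRNA_28S_1 alone was called, which is 11.1% of them, near the 10.3% called over all features. Its signal was 1131, 2161 and 1482 at 28 °C, against 8196, 5261 and 3796 at 15 °C, with replicate 1 the lowest heated and the highest control library. Its log2 change was -1.83 (SE 0.49, limma adjusted p 0.0187), and it passed the test in 15 of the 20 alternatives. The other nuclear features were far less abundant and were not called. rRNA_28S_2 averaged 161.6 ± 73.3 at 28 °C and 150.3 ± 60.3 at 15 °C (SD, n = 3 each), with overlapping groups, and rRNA_18S_1 averaged 42.7 ± 17.3 and 92.1 ± 79.8. For rRNA_28S_1, without replicate 1 at 15 °C the change was -1.54 on the log2 scale (limma adjusted p 0.0893), without replicate 1 at 28 °C -1.61 (0.0958) and without replicate 3 at 28 °C -1.81 (0.0646). The share of quality reads that matched the transcriptome moved with temperature as well. It was 26.1% ± 3.00 at 28 °C and 11.1% ± 8.66 at 15 °C in the authors' library table (SD, n = 3 each, exact permutation p 0.1). One control library of that table matched 1.55% of 46.3 M quality reads, the most quality reads among the day 3 F1 libraries. The controls there had 0.717, 3.61 and 5.64 M matched reads, with 0.717 M in that library. Recovered reads at 15 °C were 0.614, 3.22 and 5.18 M in replicates 1, 2 and 3, though no label ties these to the rows of that table. The part of the difference in matched share in the features called was not tested.

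The next comparison asked how the response on day 3 stood to that on day 1. On day 1, 1609 features rose and 1388 fell in the F1 cross, 12.5% of those tested. The difference between the day 3 and the day 1 effect was itself called for 394 features (1.64%), 131 with a more positive and 263 with a more negative effect on day 3, and 3295 had an unadjusted p under 0.05. With reads scaled to the column total the split turned, with 308 more positive and 68 more negative, 198 of the 394 (50.3%) were still called, and the median difference over all features was 0.65 on the log2 scale, against 0.16 on the authors' scaling. No majority direction is read. Without replicate 3 at 15 °C on day 3 this count was 1074, with 708 more positive and 366 more negative. It was 195 without replicate 2 and 235 without replicate 3 at 28 °C on day 3. It was 245 without replicate 3 at 28 °C on day 1, and 250 or 253 without replicate 2 or 3 at 15 °C on day 1.

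Part of the day 1 response was called on day 3 as well. The calls of both days come from 1 fit with 1 spread per feature. Features with a small spread are thus called more readily on both days. Of the 1609 features that rose on day 1, 594 rose on day 3 and 6 fell, where 6.38% of all features rose and 3.94% fell. That is 36.9% of the day 1 list and 38.8% of the day 3 list. Their median log2 fold change was 0.72 on day 3, where the median of all features was 0.15. The 222 features with a rise of at least 8-fold on day 1 had medians of 3.86, 2.01, 1.87 and 0.99 on days 1, 3, 7 and 28, and 160 of them (72.1%) rose on day 3. Since these lists were chosen for their day 1 effect, a smaller value on another day is in part fixed by that choice. Of the 1388 features that fell on day 1, 461 fell on day 3 and 9 rose, which is 33.2% of the day 1 list and 48.7% of the day 3 list, with a median of -0.62 on day 3.

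Features with a more positive effect on day 3 than on day 1 had a median log2 fold change of 0.67 on day 3 and -1.08 on day 1, so most had been lower in heated fish on day 1, and 54 of the 131 rose on day 3. The 263 with a more negative effect had medians of 0.53 on day 3 and 2.39 on day 1. These medians describe how the lists were formed. Across all 24011 features, the day 3 effect correlated with that of day 1 at Pearson's r of 0.526, with day 7 at 0.612 and with day 28 at 0.437. These describe features of the same fit, which are not independent, and each day has its own libraries.

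**Figure D4:**
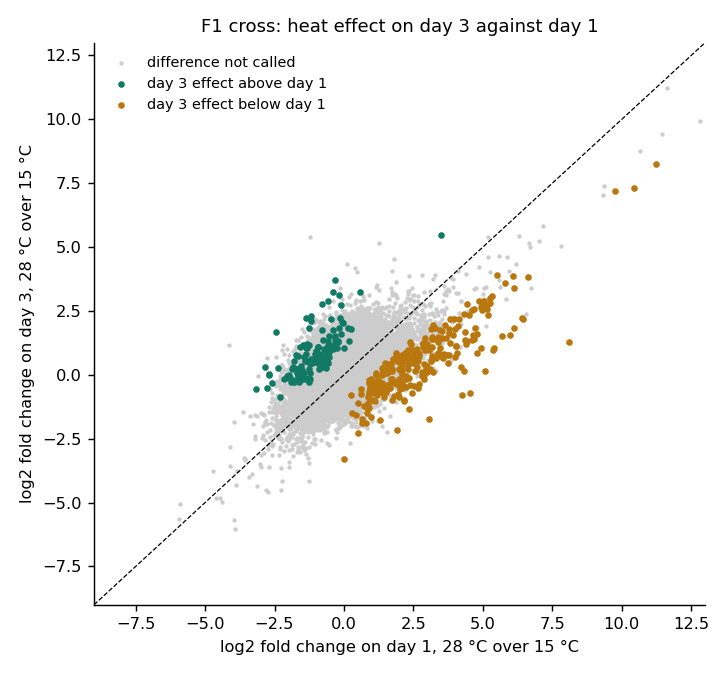
Log2 fold change of 28 °C over 15 °C in the F1 cross on day 3 against that on day 1, 1 point per feature, with the line of equal effects dashed. Coloured points are features whose effects differed between the days, 131 above the line and 263 below it on the authors' scaling (308 and 68 with column-total scaling), and the most raised features lie close to or below the line.

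Within heated fish the levels of both named features that rose were lower on day 3 than on day 1. The fit called 1399 features between the heated groups of day 3 and day 1, 635 higher and 764 lower on day 3 (5.83%). g01823 averaged 55954 ± 24134 on day 3 and 267310 ± 75563 on day 1 (SD, n = 3 each), a log2 difference of -2.32 (SE 0.51, limma adjusted p 0.0066). g14470 averaged 9763 ± 4212 on day 3 and 38445 ± 4957 on day 1, a log2 difference of -2.06 (SE 0.43, limma adjusted p 0.00466). Taken as a difference of heat effects, with both sets of controls, the values were -2.0 (SE 0.72, limma adjusted p 0.194) and -1.92 (SE 0.61, limma adjusted p 0.130). Those did not pass the threshold, and stayed uncalled in 21 of 22 alternatives for g01823 and 20 of 22 for g14470. In a fit on the 12 libraries of days 1 and 3 alone both passed, at limma adjusted p of 0.0211 and 0.0185. With the S number as a replicate block g14470 passed as well, at 0.0461. For g05572 the day 3 minus day 1 difference of effects was -2.10 (SE 1.15, limma adjusted p 0.438), and for g00501 it was -0.28 (SE 0.45, limma adjusted p 0.858).

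The last comparison set the cross against its parents on day 3. Little Jacks fish had 1004 features higher and 863 lower at 28 °C (7.67% of 24343), and Keithly fish had 975 and 778 (7.25% of 24174). The tables of the strains were normalised separately, so only differences within a table are compared, over the 23234 features that all 3 tables hold. Of the 2425 of these called in the F1 cross, 482 were called with the same sign in both parents, 709 with the same sign in Little Jacks and 782 in Keithly. The 709 are 29.2% of the F1 list and 38.5% of the Little Jacks list, and the 782 are 32.2% of the F1 list and 45.2% of the Keithly list. A further 1395 were called in neither parent. A call in the cross and not in the parents does not show that the effects differ.

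Features that rose in both parents mostly rose in the cross. There were 472 of them, chosen without the F1 libraries, and 362 (76.7%) rose in the F1 cross and 1 fell, where 6.49% of all features in the 3 tables rose there. Their median log2 fold change was 1.46 in the cross, 1.42 in Little Jacks and 1.46 in Keithly, where the parental values chose the list. Over all features in the 3 tables the medians were 0.151, -0.00422 and -0.0176 in the same order. The medians of the list are therefore not compared between strains. Of the 280 features that fell in both parents, 120 (42.9%) fell in the cross and 0 rose, against 3.95% of all features that fell there. Their median was -0.86 in the cross, -1.26 in Little Jacks and -1.32 in Keithly, and the parental values are those that chose the list.

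The 39 features raised at least 8-fold in both parents also had large effects in the cross. All but 1 of them rose there (97.4%), with a median log2 fold change of 4.33, against 4.17 in Little Jacks and 3.95 in Keithly. The parental values chose this list, and the median over all features was higher in the cross, so these medians are not compared. The 39 features took 12.7%, 5.73% and 9.22% of F1 reads at 28 °C on day 3 and 0.0971%, 0.0988% and 0.0869% at 15 °C. Of the heated reads, g01823 alone, which is among the 39, held 7.79%, 3.21% and 5.79%. Most of the heated share on day 3 is thus that of 1 feature. The groups did not overlap, with means of 9.22% ± 3.49 at 28 °C and 0.0943% ± 0.00643 at 15 °C (SD, n = 3 each, exact permutation p 0.1). The 15 °C shares were alike in the shallow replicate 1 and the deeper libraries. The heated shares were 34.9%, 28.2% and 28.9% on day 1, where g01823 alone held 22.4%, 16.8% and 16.7%. The shares of the 39 were 11.5%, 5.87% and 10.4% on day 7. By day 28 they were 6.06%, 1.17% and 4.54%.

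**Figure D5:**
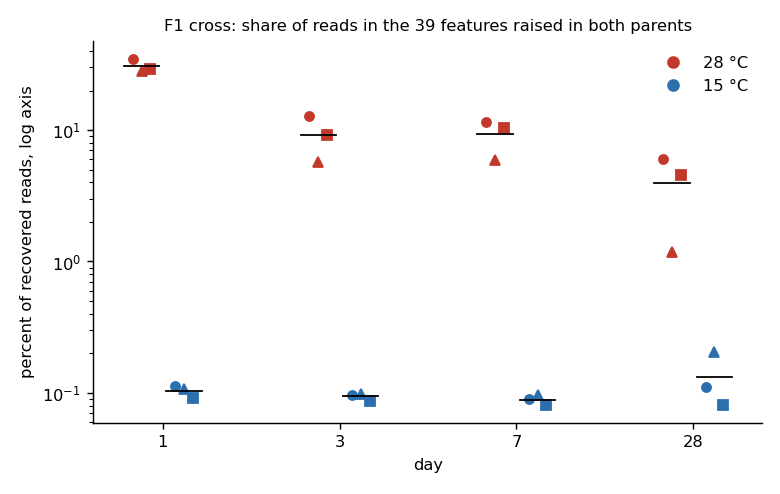
Percent of recovered F1 reads (log axis) in the 39 features raised at least 8-fold in both parents on day 3, by day, at 28 °C (red) and 15 °C (blue), with replicates 1, 2 and 3 as circle, triangle and square and a bar at the group mean. On day 3 the heated libraries lay at 5.73% to 12.7% and the controls near 0.0943%. Among the 39, g01823 alone held 3.21% to 7.79% of the heated reads on day 3.

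The test of the difference itself called fewer features. The F1 effect differed from that of Little Jacks in 276 features (1.19%), 110 more positive and 166 more negative in the cross, with 3150 at an unadjusted p under 0.05. It differed from that of Keithly in 66 (0.284%), 42 more positive and 24 more negative, with 2926 at an unadjusted p under 0.05. Against the mean of both parental effects it differed in 373 (1.61%), 208 more positive and 165 more negative, with 3539 at an unadjusted p under 0.05. Over all features the median differences were 0.156, 0.158 and 0.153 on the log2 scale, in the same order. All 3 comparisons share the F1 libraries. The counts moved with single libraries. Without replicate 3 of the F1 cross at 15 °C the 3 counts were 1338, 1198 and 2100, and without replicate 2 they were 447, 238 and 791. Without replicate 1 of the F1 cross at 15 °C the count was 18 against Keithly and 149 against the parental mean. Without replicate 1, 2 or 3 of the F1 cross at 28 °C it was 173, 165 or 162 against Little Jacks, 19, 20 or 17 against Keithly, and 176, 185 or 147 against the parental mean. Without replicate 1, 2 or 3 of Little Jacks at 28 °C, the count against that strain was 171, 177 or 170, and without its replicate 1 or 3 at 15 °C it was 160 or 163. Without replicate 1 or 3 of Keithly at 28 °C, the count against that strain was 109 or 18, and without its replicate 1, 2 or 3 at 15 °C it was 16, 18 or 16. The splits turned as well. Against the parental mean edgeR gave 51 more positive and 169 more negative, and against Keithly it gave 5 and 19. Against Little Jacks the split was 1058 and 280 without replicate 3 of the F1 cross at 15 °C. No majority direction is read from these comparisons.

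Among the 4 named features, g00501 had an F1 effect that differed from that of Little Jacks and from the parental mean, but was not called against Keithly. On day 3 Little Jacks fish had 3879, 3637 and 3095 at 28 °C, against 1986, 1899 and 2081 at 15 °C. Keithly fish had 1452, 1447 and 1962 at 28 °C, against 2015, 1403 and 2117 at 15 °C. The heated Little Jacks libraries thus all lay above their controls and the Keithly groups overlapped, while the heated F1 libraries all lay below theirs. The within-strain changes were 0.82 in Little Jacks (log2, SE 0.34, limma adjusted p 0.153) and -0.18 in Keithly (SE 0.24, limma adjusted p 0.773), so neither passed the test. The F1 effect minus the Little Jacks effect was -2.52 (SE 0.42, limma adjusted p 0.000173), and it stayed called in all 19 alternatives. Minus the parental mean it was -2.02 (SE 0.37, limma adjusted p 0.00107), called in all 25 alternatives. Minus Keithly it was -1.52 (SE 0.42, limma adjusted p 0.0907), which misses the threshold, and without replicate 3 of the F1 cross at 15 °C it passed at 0.0246. The feature had been chosen for its F1 change, which enters each of these differences.

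For g05572, values in the parents stand beside an F1 fall that chose the feature and that enters each difference below, so these differences are a description. Little Jacks fish had 2.81, 4.07 and 3.40 at 28 °C, against 3.01, 4.77 and 14.6 at 15 °C. Keithly fish had 3.96, 1.29 and 2.99 at 28 °C, against 11.0, 23.5 and 7.39 at 15 °C. The Little Jacks groups overlapped and the Keithly groups did not. The F1 effect minus that of Little Jacks was -5.28 (SE 1.43, limma adjusted p 0.0468), a call lost in 15 of 19 alternatives, where the adjusted p ran from 0.0166 to 0.136. Minus the parental mean it was -4.60 (SE 1.24, limma adjusted p 0.0403), lost in 14 of 25 alternatives, and minus Keithly it was -3.93 (SE 1.43, limma adjusted p 0.211). Leaving out any of replicates 1, 2 or 3 at 28 °C or replicate 1 at 15 °C in the F1 cross lost both calls, with the highest adjusted p of 0.136 and 0.147 without replicate 1 at 15 °C. The first call was also lost without replicate 2 of the F1 cross at 15 °C (0.0517) and without each Little Jacks library but replicate 3 at 15 °C (0.0763 to 0.133). The second was lost without replicates 1 or 2 of Little Jacks at 15 °C or 2 or 3 at 28 °C, and without replicates 1 or 3 of Keithly at either temperature (0.0526 to 0.0674).

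The test of the difference between the cross and its parents called neither of the named features that rose. For g01823 the F1 effect minus the parental effect was -0.29 (SE 0.59) for both Little Jacks and Keithly, with limma adjusted p of 0.902 and 0.915. For g14470 it was -0.10 (SE 0.58) for Little Jacks and -0.20 (SE 0.58) for Keithly, with limma adjusted p of 0.971 and 0.951. Values of p that miss the threshold do not show that the effects were alike.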

How the data were processed

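Gill RNA was purified on columns, depleted of ribosomal RNA and made into ScriptSeq libraries, per the labels' protocols. The submitters' processing notes name CASAVA 1.8, Bowtie and edgeR. For their settings, the reference transcriptome and the counting of near-identical copies, the sources used here give nothing, so features with close copies are uncertain. The deposited tables, 1 per strain, hold the authors' normalised signal. The library table deposited by the authors gives the percent of quality reads that matched, and its rows were tied to groups, not to columns. Column names gave strain, temperature and day. Sample labels hold no S number like those of the columns, which serve as replicate names only. The descriptions of the F1 samples at 28 °C on day 1 name another table, so that group rests on its column names. No 2 day 3 libraries agreed within sampling noise.

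Values were divided by the smallest step of their column, which gave whole reads within 0.01. limma 3.58.1 (R 4.3.3) with a trended prior was fitted to log2(signal + 0.5), 1 mean per group, over the 24 F1 libraries, or over all 72 libraries and 23234 shared features for differences between strains. Tests are two-sided, with p adjusted by Benjamini-Hochberg over all features of a fit. The added 0.5 makes fold changes of low features smaller. A feature with no read in a shallow library is set to log2(0.5) there, whatever its level. In replicate 1 at 15 °C on day 3, 3 reads were worth 4.04 units, so rises of such features can be overstated. edgeR 4.0.16 and DESeq2 1.42.0 on recovered reads, other scalings, pseudocounts, a filter on low signal, array weights and left-out libraries were alternatives. The fits were also run on simulated counts with known changes, the same spread for all features and column-total scaling. That simulation had no deviating controls, so it does not bear on how the calls moved with libraries or scaling. Features without a gene name are named for at most 2 that rose and 2 that fell, among called features with more than 3 reads in each of the 6 libraries. In each direction these are the one with the largest fold change and, among the rest, the one with the largest change of the group mean. Comparisons, lists and named features were chosen with earlier results of these data known. Other choices made after the files were seen were the controls of other days, the fit without day 28, thinning, and the removal of both replicates 1 and 2 at 15 °C. No sequences were matched to the identifiers.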

Additional observations from a re-analysis of the deposited data

Results flagged for a closer look

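The heat effect of day 3 differed from that of day 1 in 394 features of the F1 cross by a test of the difference. The day 3 effect of the cross differed from that of Little Jacks in 276 features, from that of Keithly in 66 and from the parental mean in 373. Single features were g05572, with -5.28 (log2) for the cross minus Little Jacks and -4.60 for the cross minus the parental mean, and g00501, with -2.52 and -2.02 for the same differences. The 4 counts moved by over 1.5 times without single libraries, and g05572 lost its call in 15 of 19 and 14 of 25 alternatives. The calls for g00501 held in all alternatives run for these differences, 19 and 25 of them. Its difference from Keithly was not called (limma adjusted p 0.0907). Both features were chosen for their F1 falls, which enter each of these differences and alternatives.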

How the results depend on the processing

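The count of features called on day 3 (2478) was within 1.5 times of its value in 13 of 20 alternatives, among them edgeR, DESeq2 and both pseudocounts. It was 1563 with column-total scaling, 946 in a fit on the 6 libraries of day 3 and 444 with only replicate 3 left at 15 °C, and with 1 library left out it ran from 1269 to 4234. More features were higher than lower in 17 of 20 and fewer in 3. A like count did not mean the same features. Of the 2478, 93.6% and 94.3% were still called with the same sign at pseudocounts of 0.1 and 2, 80.8% with DESeq2 and 76.1% with edgeR. The share was 59.4% with array weights, 57.6% without replicate 1 at 15 °C and 35.8% in the fit on the 6 libraries of day 3. The day 3 minus day 1 count (394) was 643 with array weights and 195 to 1074 with 1 library left out. The count for the cross minus Little Jacks (276) was 124 with column-total scaling and 160 to 1338 with 1 library left out. For the cross minus Keithly (66) it was 24 with column-total scaling, 24 with edgeR, 15 with array weights and 16 to 1198 with 1 library left out. For the cross minus the parental mean (373) it was 245, 220, 166 and 147 to 2100 in the same order. The ribosomal share differed by -0.518 percentage points, and by -0.00648 for the mitochondrial features alone. The causes of these moves were not tested. Same-numbered libraries of the day 3 groups deviated with correlations of -0.0811, 0.146 and 0.0543, against -0.194 to 0.117 for libraries with different numbers. The numbers were not taken to pair libraries, a choice that these correlations cannot decide. A replicate block by that number called 2448 features on day 3 and 431 for day 3 minus day 1. No paired fit was run for the differences between strains. Replicate 1 at 15 °C, with 0.614 M reads, limits what can be read of features below 4.04 units of signal.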

Other observations

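Among the heated F1 libraries, the one with S number 2 held the lowest share of reads in the 39 features raised in both parents on each of the 4 days. It had 28.2% on day 1, 5.73% on day 3, 5.87% on day 7 and 1.17% on day 28, and the library with S number 1 had the highest, with 34.9%, 12.7%, 11.5% and 6.06%. For g01823, which is among the 39 and holds much of their share, the library with S number 1 was highest on each day. It held 22.4%, 7.79%, 7.87% and 3.71% of reads there. On day 1 its lowest share was with S number 3, at 16.72%, against 16.79% with S number 2. The S numbers matched no sample label, and the 39 features were chosen in the parental libraries, so whether a number marks a shared tank or batch was not tested.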
